A study of Mus musculus with 15 samples.

Results

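The 9 genes described here are *Nrgn*, *Gap43*, *Calm2*, *Calm3*, *Camk2a*, *Camk2b*, *Camk4*, *Cabp7*, and *Cabp1*, which encode calmodulin, small proteins that hold it, kinases that it activates, and calcium-binding relatives of it. They are 9 of the 19475 genes in a deposited table of normalized read counts from mouse brain, and all 9 passed the filter on low values (a mean of at least 5) that left 16507 genes for testing. The list was put together by function, but *Nrgn* and *Cabp7* were chosen by their measured difference between homozygous and WT embryos of this same table. For that reason the comparison of these genotypes is given as a description, without a p for any member. Where passes of the threshold are given for it, nothing is read from them.

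RNA-Seq was performed on 15 embryos at E16.5 (embryonic day), with 5 WT, 5 Tbr1 +/K228E (heterozygous), and 5 Tbr1 K228E/K228E (homozygous) embryos, each with 3 females and 2 males, on a C57BL/6J background. *Tbr1* encodes a T-box transcription factor of early-born cortical neurons, and the allele is a germline knock-in of the K228E change in exon 1, so that every cell of a mutant embryo carries it. The allele was made with a floxed neomycin cassette, which was removed by a cross to protamine-Cre mice. The tissue is given as forebrain in the study and as whole brain in the description of the series.

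Calmodulin is a small protein with EF-hand loops that bind calcium, and with calcium it activates kinases, phosphatases, pumps, and cyclases in neurons. NRGN (neurogranin), in dendrites, and GAP43, in axons and growth cones, bind calmodulin when calcium is low and release it when calcium rises or when protein kinase C phosphorylates them. CaMKII, built from CAMK2A and CAMK2B subunits, is a major kinase of the synapse, and *Nrgn* and *Camk2a* are known as genes whose expression rises as forebrain neurons mature.

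NRGN binds calmodulin through an IQ motif, and its coding sequence there is shown because this motif is what makes *Nrgn* part of calmodulin signalling. The stretch lies on the minus strand of GRCm38 at chr9:37546052-37546102, within a coding exon. It covers the 11 residues of the motif, in capitals, with 3 codons on each side.
Nrgn: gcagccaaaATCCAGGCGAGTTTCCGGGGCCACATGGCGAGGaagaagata
GAP43 also held 1 IQ motif by the same search. The whole proteins are of unequal length, with 78 residues in NRGN and 227 in GAP43.

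*Calm2* and *Calm3* are shown because they encode the same 149 residues with different bases. Their first EF-hand loop is encoded on the minus strand of GRCm38 at chr17:87435873-87435908 for *Calm2* and chr7:16917667-16917702 for *Calm3*. Capitals mark positions at which the genes differ.
Calm2: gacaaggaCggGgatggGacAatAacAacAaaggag
Calm3: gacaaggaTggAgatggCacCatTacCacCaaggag
All 12 residues of the loop were the same, while 29 of the 36 bases were. Over the whole coding sequence 369 of 447 bases (82.6%) were the same in *Calm2* and *Calm3*, so that these genes differ at many positions. How reads from processed copies of calmodulin genes were assigned was not tested, and the levels of *Calm2* and *Calm3* are uncertain to that extent. CABP7 (also called calneuron 2) held 2 EF-hand loops by the same search pattern and CABP1 (caldendrin) held 3, against 4 in calmodulin. CABP7 shared 64.2% of its aligned residues with CALN1 (calneuron 1), 40.1% with CABP1, and 34.9% with calmodulin.

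T-box factors bind a core of the letters GGTGTG, and promoter windows from RefSeq (GRCm38.p6, 250 bases before to 50 after a start) were searched for it on both strands. The table of windows held 5 of the 9 genes, and 3 of these (*Nrgn*, *Cabp7*, and *Camk2b*) contained GGTGTG, which was present in 19.0% of all 32851 windows. The longer forms GGTGTGA (3.98% of all windows) and AGGTGTGA (1.28%), which contain the core, were in the window of none of the 5. The stretches around the core are shown for *Nrgn* and *Cabp7*, the genes that were higher in homozygous embryos, with the match in capitals. They lie on the minus strand at chr9:37552878-37552907 and chr11:4747362-4747391, with the match starting at -150 and -200 relative to the RefSeq start. That start differs from the 5′ end of the gene in GENCODE, from which the match begins at 10 (inside the gene) in *Nrgn* and at -601 in *Cabp7*, and in *Cabp7* the match reads on the opposite strand.
Nrgn: tttgggagatggGGTGTGtaggaggaatgg
Cabp7: ccacccctggtcCACACCacccgggtcctg
A match of these letters describes the window and not the binding of a factor.

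The values of each embryo are normalized read counts, which are estimated counts per gene divided by a size factor for the embryo. They summed to between 30535909 and 31768508 per embryo. The targeted gene *Tbr1* had a level of 3537 ± 1049 (SD, n = 5) in WT, 6269 ± 1532 (SD, n = 5) in heterozygous, and 11366 ± 3160 (SD, n = 5) in homozygous embryos. The 8 forebrain markers were detected in every genotype, and the summed level of 11 Hox genes of the hindbrain and spinal cord ranged from 0 to 3523 among the embryos. Some libraries (6 of 15) stood apart in that their Hox genes summed to over 100, namely WT 1, 2, and 4, heterozygous 1, and homozygous 1 and 2. The results on *Nrgn* and *Cabp7* are therefore also given for the other 9 embryos (2 WT, 4 heterozygous, and 3 homozygous), an alternative chosen after the data were seen. In these bulk samples, fewer cells of a type and less RNA per cell cannot be told apart.

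*Nrgn* lies on chromosome 9 of GRCm38 from 37544492 to 37552904 on the minus strand. Its normalized read counts were 267, 348, 398, 504, and 537 in the WT embryos 1 to 5. They were 373, 536, 458, 668, and 426 in the heterozygous embryos. In the homozygous embryos they were 682, 849, 1277, 892, and 804. All 5 homozygous embryos lay above every heterozygous and every WT embryo, whereas the heterozygous and WT embryos overlapped. The means were 411 ± 111 (SD, n = 5), 492 ± 115 (SD, n = 5), and 901 ± 224 (SD, n = 5), and the homozygous level was 2.21-fold that of WT embryos (log2 difference 1.14, SE 0.20).

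*Cabp7* lies on chromosome 11 from 4736892 to 4746778 on the minus strand, and its protein is a calcium sensor of the Golgi apparatus. The WT embryos had normalized read counts of 183, 197, 181, 187, and 231. The heterozygous embryos had 186, 182, 195, 188, and 174. The homozygous embryos had 331, 262, 340, 275, and 294. Heterozygous embryos stayed within a narrow range at the WT level, and every homozygous embryo lay above it. The means were 196 ± 20.4 (SD, n = 5), 185 ± 7.94 (SD, n = 5), and 300.3 ± 34.0 (SD, n = 5), a 1.53-fold higher level in homozygous than in WT embryos (log2 difference 0.61, SE 0.09). Its exons share 338 of 2628 bases with those of *Zmat5* on the opposite strand, and the library kit does not mark the strand. *Zmat5* itself had levels of 354 ± 29.4, 336 ± 26.2, and 355 ± 21.9 (SD, n = 5 each) in WT, heterozygous, and homozygous embryos.

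**Figure D1:**
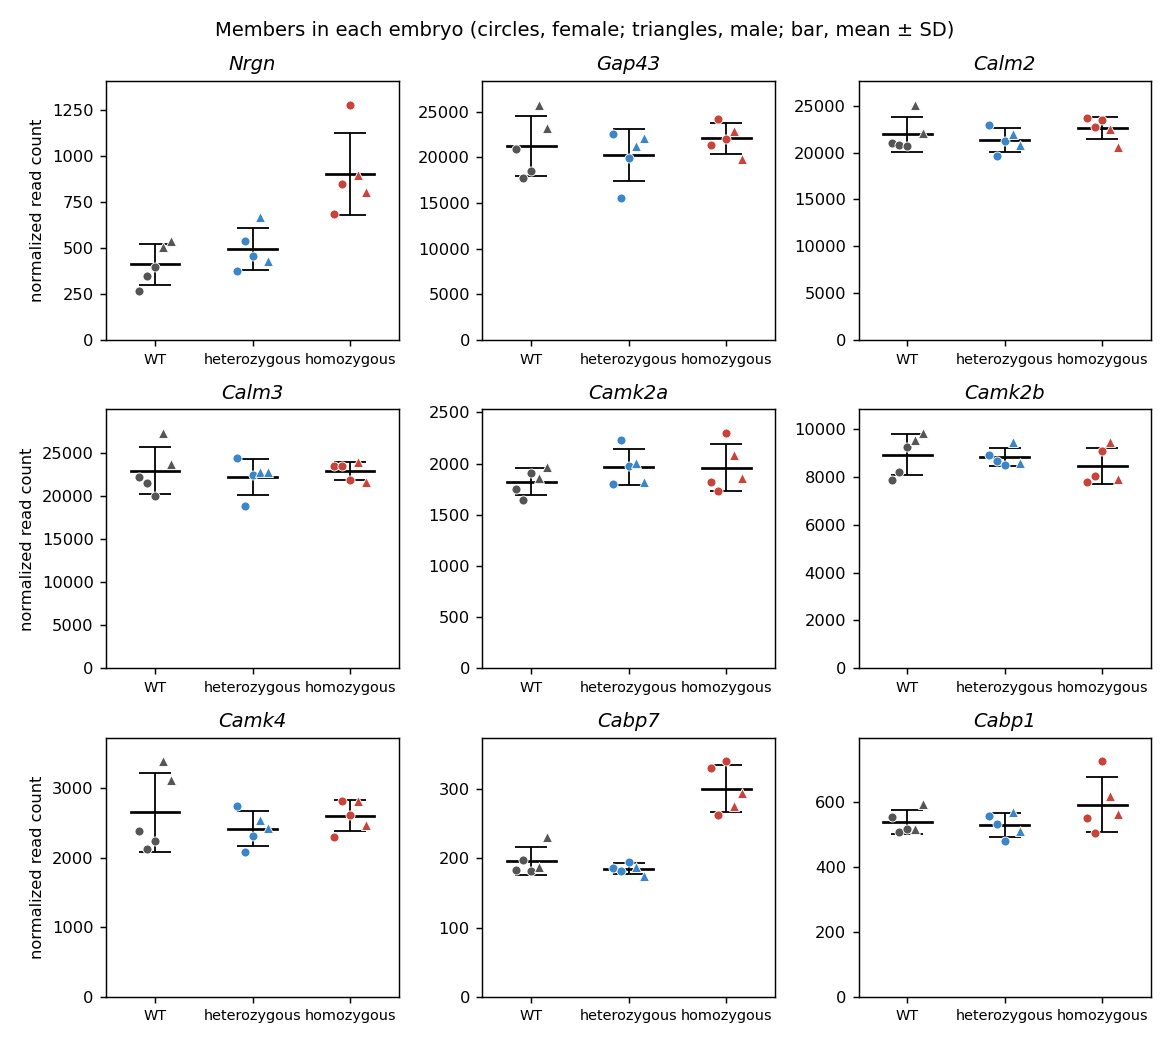
Normalized read count (vertical axis, from 0) of the 9 genes in each embryo by genotype, with circles for females, triangles for males, and bars for the mean ± SD of 5 embryos. The homozygous embryos lie apart from both other genotypes for *Nrgn* (682 to 1277) and *Cabp7* (262 to 340), and the genotypes overlap in the other 7 panels.

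The other 7 genes overlapped between genotypes in every comparison. *Gap43* ranged from 17714 to 25788 normalized read counts in WT, from 15549 to 22603 in heterozygous, and from 19810 to 24217 in homozygous embryos. Thus the axonal counterpart of *Nrgn* had a log2 difference of 0.07 (SE 0.11) between homozygous and WT embryos, and the ratio of the 2 genes shifted. Per kilobase of the longest coding transcript, *Nrgn* amounted to 1.89 ± 0.385 per 100 of *Gap43* in WT embryos. The ratio was 2.44 ± 0.760 in heterozygous and 4.00 ± 0.996 in homozygous embryos (SD, n = 5 each). The lowest homozygous ratio of 3.12 lay above the highest WT ratio of 2.26, and below the highest heterozygous ratio of 3.37. As *Nrgn* was chosen by its difference between homozygous and WT embryos, the ratio restates that difference and is no separate result.

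Transcripts of both calmodulin genes differed between each mutant genotype and WT embryos by less than the SD of the WT embryos. *Calm2* had a level of 21966 ± 1855 in WT, 21332 ± 1253 in heterozygous, and 22622 ± 1224 in homozygous embryos (SD, n = 5 each). The levels of *Calm3* were 22914 ± 2757, 22188 ± 2062, and 22847 ± 1070 (SD, n = 5 each).

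The kinase genes also differed by less than 1 SD of the WT embryos, apart from *Camk2a* in both mutant genotypes. *Camk2a* was at 1824 ± 128 normalized read counts in WT, 1965 ± 172 in heterozygous, and 1960 ± 229 in homozygous embryos (SD, n = 5 each). *Camk2b* was at 8935 ± 865, 8826 ± 385, and 8451 ± 767 (SD, n = 5 each). *Camk4*, a kinase that acts on transcription factors in the nucleus, was at 2654 ± 565, 2422 ± 248, and 2608 ± 224 (SD, n = 5 each), and 2 WT embryos (3386 and 3127) lay above all others. *Cabp1* was at 537 ± 35.8, 528 ± 36.1, and 590.4 ± 84.3 (SD, n = 5 each), with its highest value of 723 in the homozygous embryo that also had the highest *Nrgn* and *Cabp7*. The log2 differences of the 7 genes between homozygous and WT embryos ranged from -0.08 (*Camk2b*) to 0.13 (*Cabp1*), and their 95% intervals lay between -0.26 and 0.31. Differences of the size seen for *Nrgn* or *Cabp7* lie outside these intervals.

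Of the 9 genes 2 passed an adjusted p of 0.05 between homozygous and WT embryos (limma with Benjamini–Hochberg correction over all genes), where 0.127% of all 16507 genes did. The 2 genes are those for which the list was chosen, so nothing is read from this count. Between homozygous and heterozygous embryos 1 of the 9 passed (*Cabp7*, log2 difference 0.69, SE 0.09), with 0.0788% of all genes, and *Nrgn* had a log2 difference of 0.87 (SE 0.20) without passing. This comparison shares the homozygous embryos with the former. Embryos did not overlap for 2 of the 9 genes between homozygous and WT embryos (0.594% of all genes), for the same 2 between homozygous and heterozygous embryos (0.878%), and for 0 of 9 between heterozygous and WT embryos (0.26%). *Cabp7* passed in each of the 10 fits that left out a WT or homozygous embryo, while *Nrgn* passed in 3 of 10. In the fit of the WT and homozygous embryos alone neither gene passed. The count was 1 in place of 2 without WT embryo 1, 2, or 3 or without homozygous embryo 2, 3, 4, or 5. All these fits reuse the values by which the 2 genes were chosen. They describe how the calls depend on the embryos and the fit, and are no further test of the difference.

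In the 9 embryos with little Hox signal, the log2 difference between homozygous and WT embryos was 1.07 (SE 0.24) for *Nrgn* and 0.56 (SE 0.15) for *Cabp7*. Neither passed with this smaller number, nor did *Cabp7* between homozygous and heterozygous embryos. *En2*, the gene of the hindbrain and spinal cord list that is not a Hox gene, still ranged among these 9 from 8.34 (heterozygous 2) to 1179 (heterozygous 5) normalized read counts. Among females the log2 difference between homozygous and WT embryos was 1.44 for *Nrgn* and 0.72 for *Cabp7*. Among males it was 0.70 and 0.45. As every homozygous embryo lay above every WT embryo for both genes, either sex had to show a higher homozygous mean, and nothing is read from this. The difference between the sexes was not tested.

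Heterozygous embryos carry 1 mutant allele, and whether they differ from WT embryos was not used to choose the genes, although the WT embryos are shared. *Nrgn* had a log2 difference of 0.27 (SE 0.20, 95% interval from -0.16 to 0.71, two-sided exact permutation test, p = 0.294), and 1 heterozygous embryo lay above the highest WT embryo. *Cabp7* had a log2 difference of -0.08 (SE 0.09, 95% interval from -0.27 to 0.12, two-sided exact permutation test, p = 0.357). The other 7 ranged from -0.11 (*Camk4*) to 0.11 (*Camk2a*). Of the 9 genes 0 passed the adjusted threshold in limma, and 0 of 9 had an unadjusted p under 0.05. The background was also 0% of all genes, with 295 genes at an unadjusted p under 0.05. The median log2 difference of the 9 genes was -0.04, and that of all genes was -0.0021.

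Heterozygous embryos were also compared with the midpoint of WT and homozygous embryos, on the log2 scale. This contrast uses the same embryos, and the same estimate of their spread, as the one by which the genes were chosen. *Tbr1* itself lay at the midpoint (difference 0.0013, SE 0.20). *Cabp7* lay below it by a log2 difference of -0.38 (SE 0.08, 95% interval from -0.55 to -0.21, adjusted p = 0.993 in limma). *Nrgn* had a log2 difference of -0.30 from the midpoint (SE 0.18, 95% interval from -0.67 to 0.08, adjusted p = 0.993 in limma). Of the 9 genes 0 passed the adjusted threshold, as did 0% of all genes. An unadjusted p under 0.05 in limma was reached by 1 of the 9 (11.1%, *Cabp7*) and by 376 of all genes (2.28%). The homozygous and WT values by which *Cabp7* was chosen make up its midpoint, so nothing is read from this count.

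**Figure D2:**
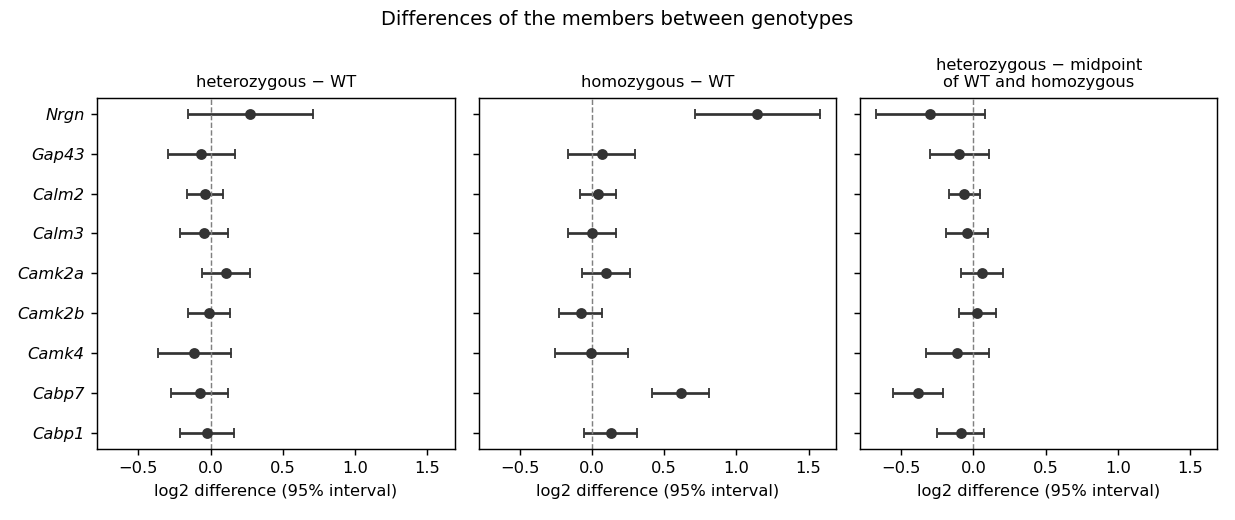
Log2 differences (horizontal axis, points, with bars for the 95% interval of the limma fit over 15 embryos) of the 9 genes for heterozygous minus WT, homozygous minus WT, and heterozygous minus the midpoint of both. *Nrgn* (1.14) and *Cabp7* (0.61) lie apart from 0 in the middle panel, and *Cabp7* (-0.38) in the right panel.

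Sex was compared across all genotypes, as it had no part in the choice of the genes. Males had the higher value in 8 of the 9 genes, with log2 differences from -0.0058 (*Cabp7*) to 0.26 (*Nrgn*, SE 0.16). The median of the 9 was 0.104, against 0.00097 over all genes. The direction depended on genotype, which was not tested. In WT embryos the male mean was the higher for every gene, and in heterozygous embryos for all but *Camk2a* and *Cabp7*. In homozygous embryos the female mean was the higher for *Nrgn* (936 against 848), *Gap43*, *Calm2*, *Calm3*, *Cabp7*, and *Cabp1*. There the male mean was the higher for *Camk2a*, *Camk2b*, and *Camk4*. The 9 genes are not independent, since several of them varied together within genotypes (below). Without the 6 embryos with Hox signal *Nrgn* was at -0.034, *Camk2a* at -0.119, and *Cabp1* at -0.00236, so that the direction of these 3 genes turned. *Camk4* had the smallest p of the 9 (log2 difference 0.21, SE 0.08, unadjusted p = 0.0242, adjusted p = 0.412 in limma). Of the 9 genes 0 passed the adjusted threshold and 1 had an unadjusted p under 0.05, where 0.0788% of all genes passed and 1822 of them (11%) had an unadjusted p under 0.05. The same male embryos include WT 4 and 5, with the high *Camk4* values given above, and WT 4 had the smallest sum of the forebrain markers (20385).

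Within genotypes, the 9 genes varied together in groups. The genotype mean was subtracted from each log2 value, and the deviations were correlated over the 15 embryos for all 36 pairs, with 100000 permutations within genotypes and Benjamini–Hochberg correction over the pairs. By both Pearson's r and Spearman's rho, 8 pairs passed 0.05. Of these 6 were all pairs among *Gap43*, *Calm2*, *Calm3*, and *Camk4*, with r from 0.730 to 0.917. *Gap43* and *Camk4*, for example, had r = 0.885 (permutation p = 3e-05, adjusted p = 0.00108) and rho = 0.921 (permutation p = 2e-05, adjusted p = 0.00072). Without the 2 embryos farthest from the median of *Gap43*, r was 0.877.

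The other pairs that passed joined *Nrgn* to the CaMKII subunits. With *Camk2b* r was 0.783 (permutation p = 0.00177, adjusted p = 0.0106) and rho 0.793 (permutation p = 0.00157, adjusted p = 0.0141), and r was 0.747 without the 2 farthest embryos. With *Camk2a* r was 0.719 (permutation p = 0.00479, adjusted p = 0.0221) and rho 0.754 (permutation p = 0.00343, adjusted p = 0.0247), and r was 0.654 without the 2 farthest embryos. Embryos high in *Nrgn* for their genotype thus tended to be high in both subunits, although neither subunit moved with genotype as *Nrgn* did. Not every embryo followed. In heterozygous embryos 1 and 2, *Nrgn* deviated by -0.369 and 0.154, and *Camk2b* by 0.0182 and -0.0228. *Nrgn* and *Gap43* did not pass (r = 0.163, permutation p = 0.604, and rho = 0.175, permutation p = 0.572, with r = 0.146 without the 2 farthest embryos). Nor did *Nrgn* and *Cabp7*, the genes that were higher in homozygous embryos (r = 0.371, permutation p = 0.234, and rho = 0.236, permutation p = 0.429, with r = 0.203 without the 2 farthest embryos). No pair with *Cabp7* passed.

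**Figure D3:**
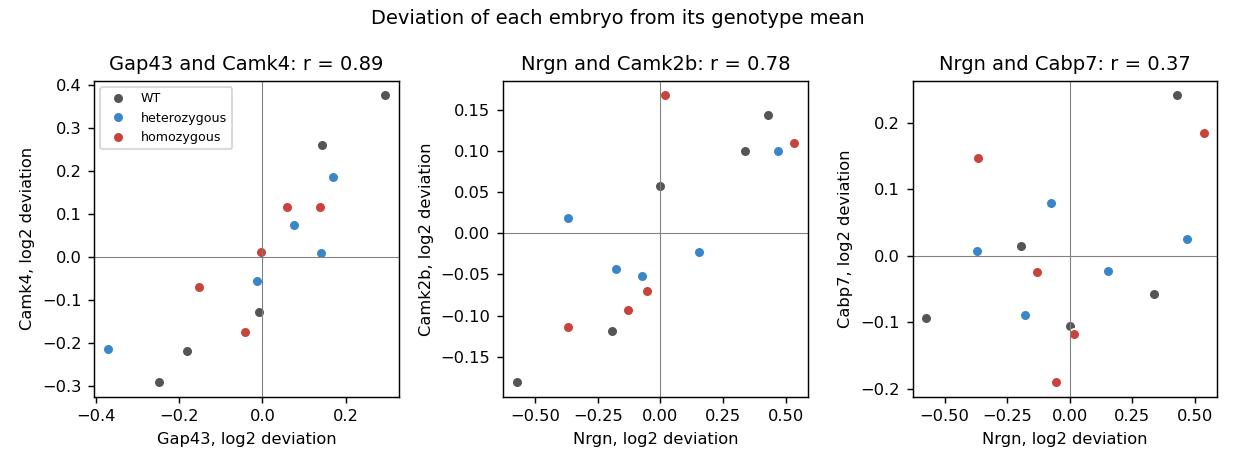
Log2 deviation of each of 15 embryos from the mean of its genotype, colored by genotype, for *Gap43* and *Camk4* (r = 0.885), *Nrgn* and *Camk2b* (r = 0.783), and *Nrgn* and *Cabp7* (r = 0.371). The points of the first panel rise together in all genotypes. Those of the second rise together over the 15 embryos, with heterozygous embryos 1 and 2 going the other way, and those of the third are scattered.

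The composition of the libraries was set beside these groups. The mean log2 values of 4 marker lists (12 neuron, 10 dividing cell, 8 forebrain, and 12 hindbrain and spinal cord genes) were correlated with the 9 genes in the same way, in a family of 36 relations, of which 10 passed. The points share their libraries and the scaling. *Calm2* rose and fell with the neuron list (r = 0.946, permutation p = 0.00012, adjusted p = 0.00108, and rho = 0.900, permutation p = 0.00023, adjusted p = 0.00202, with r = 0.911 without the 2 farthest embryos). *Camk4* ran against the dividing cell list (r = -0.909, permutation p = 3e-05, adjusted p = 0.00108, and rho = -0.914, permutation p = 9e-05, adjusted p = 0.00202, with r = -0.874 without the 2 farthest embryos). *Calm3* ran against the forebrain list (r = -0.861, permutation p = 0.00015, adjusted p = 0.00108, and rho = -0.879, permutation p = 0.00028, adjusted p = 0.00202, with r = -0.825 without the 2 farthest embryos). The 10 relations that passed all involved *Gap43*, *Calm2*, *Calm3*, or *Camk4*.

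*Nrgn* and *Cabp7* passed with none of the 4 lists. For *Nrgn*, r was 0.10 with the neuron list (permutation p = 0.765, rho = 0.0464, permutation p = 0.881, r = 0.0290 without the 2 farthest embryos). With the forebrain list its r was 0.0302 (permutation p = 0.929, rho = 0.0250, permutation p = 0.940, r = -0.181 without the 2 farthest embryos). The hindbrain and spinal cord list ran against *Nrgn* without passing (r = -0.488, permutation p = 0.0989, rho = -0.543, permutation p = 0.0659, r = -0.448 without the 2 farthest embryos). *Camk2a* (r = -0.566, permutation p = 0.0285, adjusted p = 0.0933) and *Camk2b* (r = -0.262, permutation p = 0.362) also ran against this list without passing. The sign was also negative, without passing, for *Nrgn* and the dividing cell list (r = -0.380, permutation p = 0.224, rho = -0.425, permutation p = 0.153, r = -0.516 without the 2 farthest embryos). *Nrgn* thus had its larger correlations, by size, with these other two lists. For *Cabp7*, r was 0.0138 with the neuron list (permutation p = 0.960, rho = 0.0607, permutation p = 0.832, r = 0.0416 without the 2 farthest embryos). With the forebrain list its r was 0.280 (permutation p = 0.390, rho = 0.229, permutation p = 0.465, r = 0.232 without the 2 farthest embryos). Between genotypes the summed neuron list ranged from 250766 to 289296 in WT and from 257799 to 286538 in homozygous embryos, with 12 of 12 genes detected. The 8 markers of striatal projection neurons, cells that also express *Nrgn* in the mature brain, summed to between 3111 and 4097 in WT and between 3421 and 4136 in homozygous embryos. The sums of the dividing cell list (10183 to 19625 in WT and 9712 to 17646 in homozygous embryos), and of the lists for meninges (10 genes) and blood (6 genes), also overlapped between all genotypes.

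**Figure D4:**
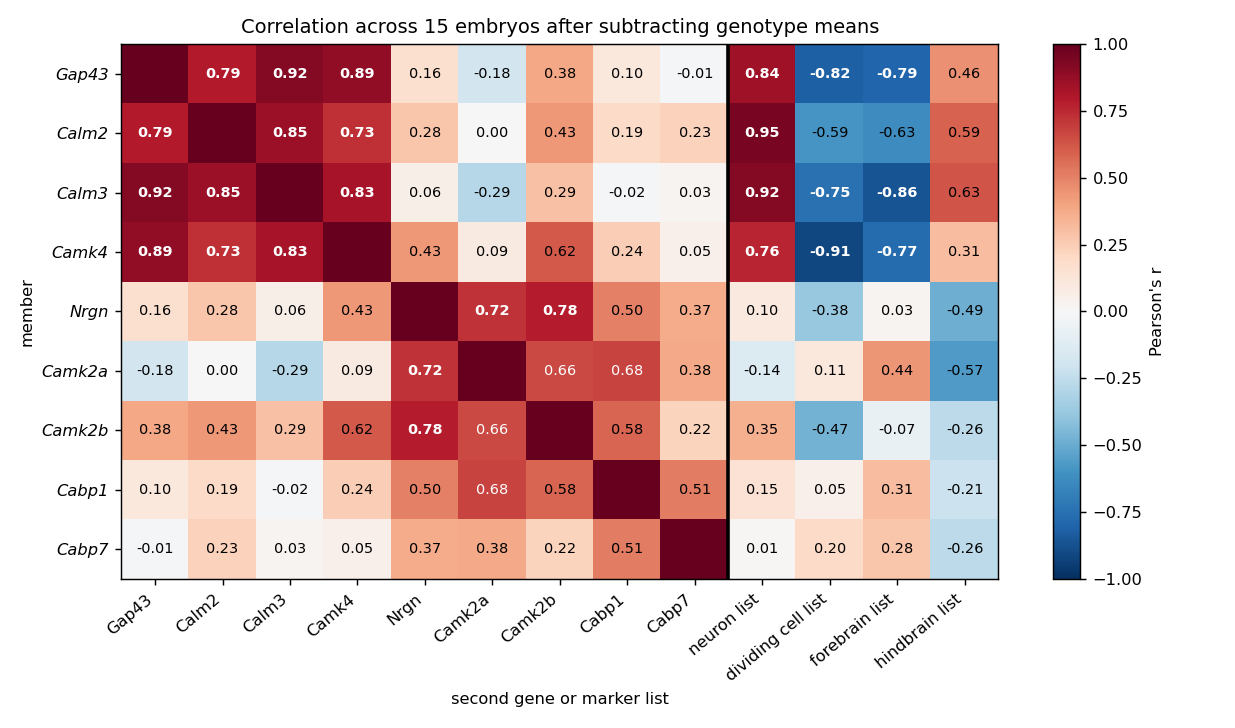
Pearson's r (color and number) over 15 embryos after subtracting genotype means, for the 9 genes with each other (left of the line) and with 4 marker lists (right of the line), where bold numbers passed an adjusted p of 0.05 by both r and rho. *Gap43*, *Calm2*, *Calm3*, and *Camk4* form a block (r from 0.730 to 0.917) that runs with the neuron list, and *Nrgn* joins *Camk2a* and *Camk2b*.

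Among the 13527 genes whose mean reached 50, the 5 whose deviations were most like those of *Nrgn* over the 15 embryos were *Abi2* (r = 0.952), *Ddn* (0.934), *Dlg3* (0.919), *Hecw1* (0.917), and *Mars2* (0.912). *Abi2* encodes an Abl interactor that acts on the actin cytoskeleton, *Ddn* encodes dendrin, a protein of dendrites, and *Dlg3* a scaffold of the postsynaptic density. As they are the extreme values of many, no p is given. Their levels were close between genotypes, with the widest difference in *Ddn* (242 ± 79.9 in WT and 293 ± 51.1 in homozygous embryos, SD, n = 5 each, log2 difference 0.32). For *Cabp7* the 5 were *Bag2* (r = 0.824), *Ift57* (0.776), *Sphk2* (0.767), *Spr* (0.754), and *Fau* (0.753), and their log2 differences between homozygous and WT embryos ranged from -0.03 to 0.08. The lists for the 2 genes had no gene in common.

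Levels between genes were compared per kilobase of the longest coding transcript. In WT embryos *Calm2* (18229 ± 1539) and *Gap43* (14954 ± 2345) came first, followed by *Calm3* (10006 ± 1204), *Camk2b* (2221 ± 215), and *Camk4* (977 ± 208). Then came *Camk2a* (367 ± 25.8), *Cabp1* (331 ± 22.1), *Nrgn* (283 ± 76.4), and *Cabp7* (74.5 ± 7.77; SD, n = 5 for all 9). The mean ± SD of *Calm2* and *Gap43* overlapped, as did those of *Camk2a*, *Cabp1*, and *Nrgn* as neighbors in this order. In homozygous embryos *Nrgn* (620.0 ± 154) lay above *Camk2a* (394 ± 46.1) and *Cabp1* (364 ± 52.0; SD, n = 5 each). The place of *Cabp1* depends on the transcript chosen, since per kilobase of all its exons merged it was at 92.1 in WT embryos, and *Nrgn* at 283 and *Camk2a* at 244. *Gap43* lies on chromosome 16 (42248442 to 42340651, minus strand), *Calm2* on chromosome 17 (87433412 to 87446935, minus strand), and *Calm3* on chromosome 7 (16915379 to 16924114, minus strand). *Camk2b* lies on chromosome 11 (5969644 to 6066362, minus strand) and *Cabp1* on chromosome 5 (115168689 to 115194381, minus strand), and *Camk2a* and *Camk4* are on the plus strand of chromosome 18.

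A further 66 genes of calmodulin signalling were listed by role, and 65 of them were in the table. Of these 65 genes 0 passed the adjusted threshold in limma in any of the 5 comparisons (the 3 between genotypes, the midpoint, and sex). At an unadjusted p under 0.05 there were 5 between homozygous and WT, 0 between homozygous and heterozygous, 1 between heterozygous and WT embryos, 1 against the midpoint, and 13 between the sexes. These are 7.69%, 0%, 1.54%, 1.54%, and 20% of the 65 genes, where 3.23%, 3.3%, 1.79%, 2.28%, and 11% of all genes had such a p in the same comparisons. Between homozygous and WT embryos 31 were higher and 34 lower, with a median log2 difference of -0.0099, against -0.0023 over all genes.

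By role, the direct counterparts of the 9 genes had small differences between homozygous and WT embryos. *Camk2d* had a log2 difference of 0.08 (SE 0.14) and *Camk2g* of 0.01 (SE 0.06) between homozygous and WT embryos. *Caln1*, the closest relative of *Cabp7* among those aligned, had a log2 difference of -0.05 (SE 0.13), from 726 ± 153 in WT to 691 ± 69.2 in homozygous embryos (SD, n = 5 each). *Pcp4*, another small protein with an IQ motif, had a log2 difference of -0.05 (SE 0.18), from 1352 ± 289 to 1291 ± 186 (SD, n = 5 each). The 5 other small calmodulin binders, *Pcp4* among them, had log2 differences from -0.29 to 0.07, against 1.14 for *Nrgn*.

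Of the genes with the smallest unadjusted p between homozygous and WT embryos, 2 that were higher and 3 that were lower are named, none of which passed the adjusted threshold (adjusted p above 0.999 for all 5 in limma). *Camk1d*, a CaM kinase, had a log2 difference of 0.18 (SE 0.06), and *Camkmt*, which methylates calmodulin, of 0.21 (SE 0.09). In the other direction stood *Atp2b4*, a calcium pump (-0.15, SE 0.06), *Pde1c*, a calmodulin-dependent phosphodiesterase (-0.40, SE 0.18), and *Kcnip3*, a neuronal calcium sensor (-0.13, SE 0.08). *Kcnip3* did not reach an unadjusted p under 0.05 in limma, unlike the others named here. *Atp2b4* was also the gene of the 65 with an unadjusted p under 0.05 between heterozygous and WT embryos (log2 difference -0.19, SE 0.06, adjusted p = 0.999 in limma).

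**Figure D5:**
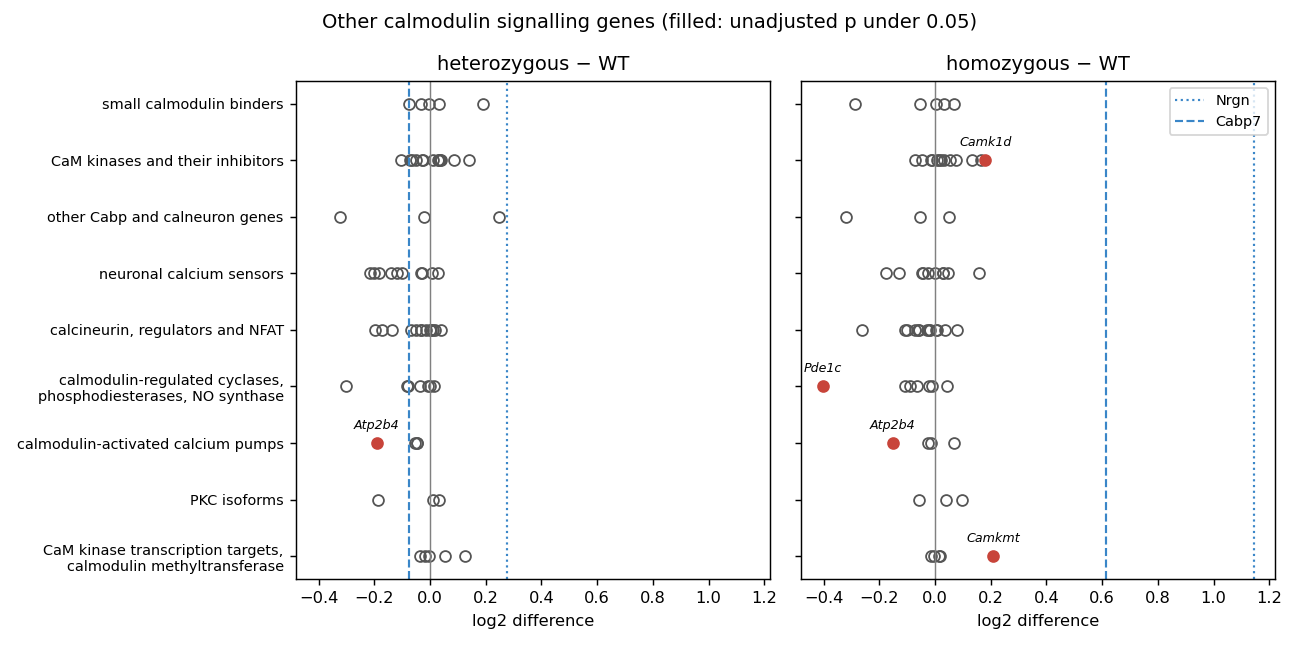
Log2 differences (horizontal axis) of 63 of the 65 other calmodulin signalling genes by role, each gene as a circle, for heterozygous minus WT and homozygous minus WT embryos, with filled circles for an unadjusted p under 0.05. The dotted and dashed lines mark *Nrgn* and *Cabp7*, and in the right panel the 63 genes lie to the left of both lines (1.14 and 0.61), with *Camkmt* nearest at 0.21.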

How the data were processed

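Total RNA from brains of 15 embryos (5 per genotype) was sequenced by the authors from TruSeq RNA v2 libraries, which do not mark the strand. The authors estimated abundance on GRCm38 with Salmon 0.11.2 and imported it to genes in R 3.5.3. They divided the counts by DESeq2 1.22.2 size factors, and the deposited values are this normalized signal per gene and embryo. Whole reads could not be recovered, so the depth of each library is unknown and no count model was fitted. The deposited genes were matched by Ensembl identifier to GENCODE M21 (19452 of 19475).

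Values were analyzed as log2(value + 1), for which fold changes of low genes are understated. All 15 embryos entered one fit in limma 3.58.1 (R 4.3.3; lmFit, and eBayes with a trend), with sex as a term in the comparison of the sexes, and testing covered the 16507 genes whose mean reached 5. Benjamini–Hochberg adjustment ran over all of them, with a threshold of 0.05. Single genes were compared by two-sided exact permutation of 5 against 5 embryos, with a smallest possible p of 0.00794. Labels do not state litters, so p-values measure the spread between these embryos.

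The members, the pathway list, and the marker lists were chosen with earlier results of these data known. Named genes are the members, their listed counterparts, the 3 pathway genes with the smallest unadjusted p in each direction between homozygous and WT embryos (as none passed the threshold), the 5 genes most like *Nrgn* and *Cabp7*, *Tbr1*, and the marker lists. *Zmat5* was added for its overlap. Some items that the rule names, 2 genes of the pathway list among them, are not reported here. EF-hand loops and IQ motifs were found by pattern in translated GENCODE coding sequences, and proteins were aligned with Biopython 1.88. Alternatives were other pseudocounts (0.1, 10), filters (none, a mean of at least 50), scalings, sex as a covariate, a replicate block, robust eBayes, fits of 2 genotypes, leaving out embryos in turn, and leaving out embryos with Hox signal.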

Additional observations from a re-analysis of the deposited data

How the results depend on the processing

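Of the 9 genes, the count past the threshold was 0 between heterozygous and WT embryos, against the midpoint, and between the sexes under every alternative run, and that of the 65 other genes was 0 in all 5 comparisons. Between homozygous and WT embryos the count of 2 became 0 in the fit of these genotypes alone, and 1 to 2 when an embryo was left out. Without the 6 embryos with Hox signal, which leaves 9, it was 0, and between homozygous and heterozygous embryos it was 0 in place of 1. The other pseudocounts, filters, scalings, sex as a covariate, and robust eBayes left both counts as they were. The cause of the loss in the fit of 2 genotypes was not tested.

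With the replicate number as a block, the count was 1 between homozygous and WT embryos and 0 between homozygous and heterozygous embryos. Correlations of same-numbered embryos ranged from 0.0238 to 0.506 between these genotypes and from -0.232 to 0.349 between homozygous and heterozygous embryos, so the numbers were not taken to pair the embryos.

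Uncalled log2 differences changed sign under some alternatives. Between homozygous and WT embryos *Calm3* was at -0.00173 after rescaling to the upper quartile and -0.0273 after quantile normalization. Between the sexes *Cabp7* was at 0.0327 after quantile normalization. Without the embryos with Hox signal, *Camk2a* was at 0.0499 between homozygous and heterozygous embryos and -0.000792 against the midpoint, and *Camk2b* at -0.0588 against the midpoint. Between the sexes, *Nrgn* was then at -0.034 (0.26 with all embryos), *Camk2a* at -0.119, and *Cabp1* at -0.00236. When an embryo was left out, the range between heterozygous and WT embryos was -0.126 to 0.0284 for *Gap43*, -0.0672 to 0.00912 for *Calm2*, -0.0905 to 0.0209 for *Calm3*, -0.0584 to 0.0228 for *Camk2b*, and -0.0513 to 0.0119 for *Cabp1*. Between homozygous and heterozygous embryos it was -0.0129 to 0.0811 for *Calm3* and -0.067 to 0.0385 for *Camk2a*. Between homozygous and WT embryos it was -0.0443 to 0.0672 for *Calm3* and -0.0771 to 0.0899 for *Camk4*. Against the midpoint it was -0.0798 to 0.0142 for *Calm3*, and between the sexes -0.0179 to 0.0607 for *Calm2* and -0.0641 to 0.0212 for *Cabp7*.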
